A study of Rattus norvegicus with 12 samples.

Results

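The transcripts described here are 10 genes that mark fat cells, measured by microarray in rat lung. Ucp1 and Cidea mark brown fat, and Adipoq, Plin1, Cfd, Thrsp, Car3, Lep, Fabp4 and Pck1 are expressed by fat cells more generally. The 10 were chosen by symbol, with their signal on these arrays already known, so their levels are given as a description with no test. A probe was found through its RefSeq accession for 9 of the 10, out of 14737 genes on the array that could be named in this way, and Plin1 has no value here.

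White fat stores energy as triglyceride and secretes hormones, among them adiponectin from Adipoq, leptin from Lep and the protease adipsin from Cfd. Brown fat burns fatty acids to make heat: UCP1 lets protons leak across the inner mitochondrial membrane, and CIDEA sits on the many small lipid droplets of these cells. Fat depots lie around the heart, the great vessels and the root of the lung, and brown fat is abundant in the thorax of rats.

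Lungs of male Sprague-Dawley rats, 8 to 12 weeks old by the labels, were compared in 4 groups of 3 arrays, each a replicate lung sample by the labels. Control rats are labelled as controls for both treatment and disease. The CS+LPS group modelled chronic obstructive pulmonary disease by exposure to cigarette smoke and lipopolysaccharide given into the trachea. The CS+LPS+NaHS and CS+LPS+PPG groups received in addition sodium hydrosulfide or propargylglycine, respectively, before the smoke or the lipopolysaccharide. Sodium hydrosulfide releases hydrogen sulfide, and propargylglycine inhibits the hydrogen sulfide forming enzyme cystathionine gamma-lyase. RNA was from lung tissue, and in such bulk samples fewer cells of a type and less RNA per cell cannot be told apart.

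Values below are normalized signals on the log2 scale, that is the processed probe intensity after all arrays were shifted to 1 common 75th percentile, so a difference of 1 is a 2-fold difference. The lung markers Sftpc and Scgb1a1, which encode surfactant protein C and the club cell secretoglobin, and Ager of type 1 alveolar cells were well above background on 12 of 12 arrays. Control replicate 3 stood apart from the other arrays. Over probes that passed the detection filter described below, its correlation with them was 0.936 to 0.956, while the others correlated with each other at 0.975 or more. This array had the lowest 75th percentile of signal, and it shared slide 2 with the 3 CS+LPS arrays while the remaining 8 arrays were on slide 1. It had the highest signal of the 12 arrays for 34.9% of 14731 genes. Results that rest on it are therefore given with and without it.

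Promoter sequences are shown for 3 genes that stand for the 3 patterns described next: Ucp1, high on 1 array, Thrsp, high on that array and on the CS+LPS+PPG arrays, and Pck1, high on that array and on 1 CS+LPS+PPG array. Each is the 250 bases before the start site in RefSeq, build GRCr8, written 5′ to 3′ along the gene, with capitals marking any match to the motifs searched.
Ucp1, chr19:41721422-41721671, minus strand: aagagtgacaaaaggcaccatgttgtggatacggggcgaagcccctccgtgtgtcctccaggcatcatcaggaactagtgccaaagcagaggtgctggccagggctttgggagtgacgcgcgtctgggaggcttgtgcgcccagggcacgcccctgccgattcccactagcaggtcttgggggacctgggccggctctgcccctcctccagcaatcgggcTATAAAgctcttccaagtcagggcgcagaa
Thrsp, chr1:161138965-161139214, minus strand: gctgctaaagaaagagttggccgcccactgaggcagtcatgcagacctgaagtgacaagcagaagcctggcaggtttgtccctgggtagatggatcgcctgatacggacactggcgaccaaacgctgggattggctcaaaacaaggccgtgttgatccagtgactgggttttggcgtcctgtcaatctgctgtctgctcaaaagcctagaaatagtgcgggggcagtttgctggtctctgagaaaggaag
Pck1, chr3:182348322-182348571, plus strand: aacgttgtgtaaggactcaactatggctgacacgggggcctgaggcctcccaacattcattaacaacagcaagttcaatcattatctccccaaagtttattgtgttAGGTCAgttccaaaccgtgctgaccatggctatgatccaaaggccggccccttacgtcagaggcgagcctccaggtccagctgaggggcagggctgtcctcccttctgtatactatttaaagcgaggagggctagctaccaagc
The motifs were TATAAA (the TATA box), AGGTCA (the core of nuclear receptor sites), TTNNGCAA (a form bound by C/EBP factors) and CACGTG (an E-box), on both strands. Ucp1 held TATAAA at position -30 from the start site, and Pck1 held AGGTCA at position -144. Thrsp held none of the 4. Of all 33465 promoters of this length, 12.9% held TATAAA, 14.1% AGGTCA, 9.22% TTNNGCAA and 5.59% CACGTG. Among the 8 members with a promoter in the reference table, AGGTCA was found in Pck1 alone, TATAAA in Ucp1 alone and TTNNGCAA in Plin1 and Lep.

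The brown fat transcripts separated 1 array from the other 11. For Ucp1, the uncoupling protein itself, the signal was 5.11, 4.55 and 13.24 in the 3 control arrays. It was 4.46, 5.13 and 4.95 in CS+LPS, 4.40, 4.99 and 5.29 in CS+LPS+NaHS, and 5.25, 5.93 and 5.43 in CS+LPS+PPG. Thus 11 arrays lay between 4.40 and 5.93, 2 of them, Control replicate 2 and CS+LPS+NaHS replicate 1, not well above background, and Control replicate 3 lay above all of them. On the linear scale Control replicate 3 gave 9700 units where the 11 others gave 21.1 to 61, and it was 342-fold above the mean of the other control arrays, 1 of which was not well above background.

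Control replicate 3 exceeded the next highest array by 7.31 for Ucp1, the largest such gap among 11141 detected genes with a value on every array. The gap ranked second was 3.86, for the chloride channel gene Clcn3, and 400 genes, or 3.59%, had a gap of 1 or more. The probe for Ucp1 is spotted 10 times on each array, so the value is not that of a single spot.

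Cidea, the lipid droplet protein of brown fat, was well above background on all 12 arrays. Its signal was 10.38, 10.53 and 13.79 in control, 11.23, 10.89 and 11.21 in CS+LPS, 10.97, 10.62 and 10.71 in CS+LPS+NaHS, and 11.35, 11.45 and 11.32 in CS+LPS+PPG. Control replicate 3 was again the highest, 2.35 above the next array, which ranked 18 among the same genes. A second Cidea probe gave the same top array, at 10.93 against 8.48 to 9.57 elsewhere. Unlike Ucp1, the 3 CS+LPS+PPG arrays also lay above the other 8 arrays on the brighter Cidea probe, although by 0.09 at the closest point, and on the second probe they overlapped them.

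Among the 7 measured general fat transcripts, Adipoq, Thrsp, Car3 and Fabp4 were high on the same control array and, in addition, on the 3 CS+LPS+PPG arrays, Cfd was highest in CS+LPS+PPG, Pck1 was high on that control array and 1 CS+LPS+PPG array, and Lep was near background throughout. Adipoq, which encodes the fat cell hormone adiponectin, was 3.68, 4.32 and 11.61 in control and 7.12, 4.26 and 3.13 in CS+LPS. It was 3.08, 5.62 and 3.51 in CS+LPS+NaHS and 10.64, 7.91 and 10.01 in CS+LPS+PPG. Its probe was well above background on 6 arrays: the 3 CS+LPS+PPG arrays, Control replicate 3, CS+LPS replicate 1 and CS+LPS+NaHS replicate 2. The CS+LPS+PPG mean of 9.52 ± 1.43 (SD, n = 3) was 4.68 above that of CS+LPS, 4.84 ± 2.06, and 5.45 above that of CS+LPS+NaHS, 4.07 ± 1.36, with no overlap between arrays. Since 2 of 3 arrays in each of those groups were not well above background, both differences depend on the background correction, and normexp gave 2.89 and 3.22. Against control, 6.54 ± 4.40, the difference was 2.98 with overlapping arrays, and 1.42 with normexp. Without Control replicate 3 the main difference was 5.51, or 45.7-fold. That value also depends on the background correction, since neither remaining control array was well above background.

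Thrsp, a nuclear regulator of fatty acid synthesis, followed Adipoq closely. It was 5.14, 5.24 and 10.86 in control, 6.36, 5.41 and 5.53 in CS+LPS, 5.68, 5.77 and 5.20 in CS+LPS+NaHS, and 9.68, 7.21 and 9.05 in CS+LPS+PPG. The CS+LPS+PPG arrays lay above all CS+LPS and CS+LPS+NaHS arrays, with mean differences of 2.88 and 3.09. Against control the difference was 1.56 with overlapping arrays, and 0.73 with normexp. Without Control replicate 3 the main difference was 3.46. That value also depends on the background correction, since Control replicate 2 was not well above background for Thrsp.

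Car3, a carbonic anhydrase of fat, muscle and liver, was not well above background on Control replicates 1 and 2, at 3.89 and 3.91, and was 8.47 on Control replicate 3. It was 5.59, 4.97 and 5.45 in CS+LPS, 4.99, 4.84 and 5.39 in CS+LPS+NaHS, and 8.96, 6.76 and 8.28 in CS+LPS+PPG. Here CS+LPS+PPG replicate 1, not Control replicate 3, was the highest of the 12 arrays. The CS+LPS+PPG mean was 2.67 above CS+LPS and 2.93 above CS+LPS+NaHS. It was 2.58 above control, and 1.09 with normexp. When Control replicate 3 was left out, it was 4.10, or 17.2-fold, above the remaining control arrays, a value that depends on the background correction.

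Fabp4, the fatty acid carrier of fat cells, is also made by endothelial cells and macrophages, and it was well above background on every array. It was 8.33, 9.17 and 11.82 in control, 9.29, 10.06 and 9.51 in CS+LPS, 9.86, 9.92 and 9.04 in CS+LPS+NaHS, and 11.13, 10.62 and 10.69 in CS+LPS+PPG. The order of groups was that of Thrsp on a narrower range: CS+LPS+PPG lay 1.19 above CS+LPS and 1.20 above CS+LPS+NaHS with no overlap, and 1.04 above control, or 2.06 without Control replicate 3.

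Cfd, which encodes adipsin, a complement protease, had the smallest rise on Control replicate 3 among the 5 general fat members that passed the detection filter described below. It was 11.67, 11.72 and 12.63 in control, 12.42, 12.57 and 11.96 in CS+LPS, 12.25, 12.09 and 12.80 in CS+LPS+NaHS, and 13.19, 12.90 and 13.26 in CS+LPS+PPG. Cfd was the 1 member whose CS+LPS+PPG arrays all lay above all 3 control arrays, Control replicate 3 included, at a difference of 1.11, where 14.4% of 14731 genes had that order. Control replicate 3 ranked 5 of 12 for it.

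Pck1, the key enzyme of glyceride and glucose synthesis from non-sugar precursors, was 4.43, 5.36 and 10.06 in control, 3.95, 4.62 and 4.71 in CS+LPS, 5.30, 3.70 and 5.73 in CS+LPS+NaHS, and 7.45, 4.42 and 4.77 in CS+LPS+PPG. It was well above background on 5 arrays, and only Control replicate 3 and CS+LPS+PPG replicate 1 rose above 5.73. Lep, the gene for leptin, stayed between 2.57 and 4.15 and was well above background on 2 arrays, CS+LPS replicate 2 and CS+LPS+NaHS replicate 2. Neither gene passed the filter of being well above background on all 3 arrays of a group, which 7 of the 9 measured members passed.

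**Figure D1:**
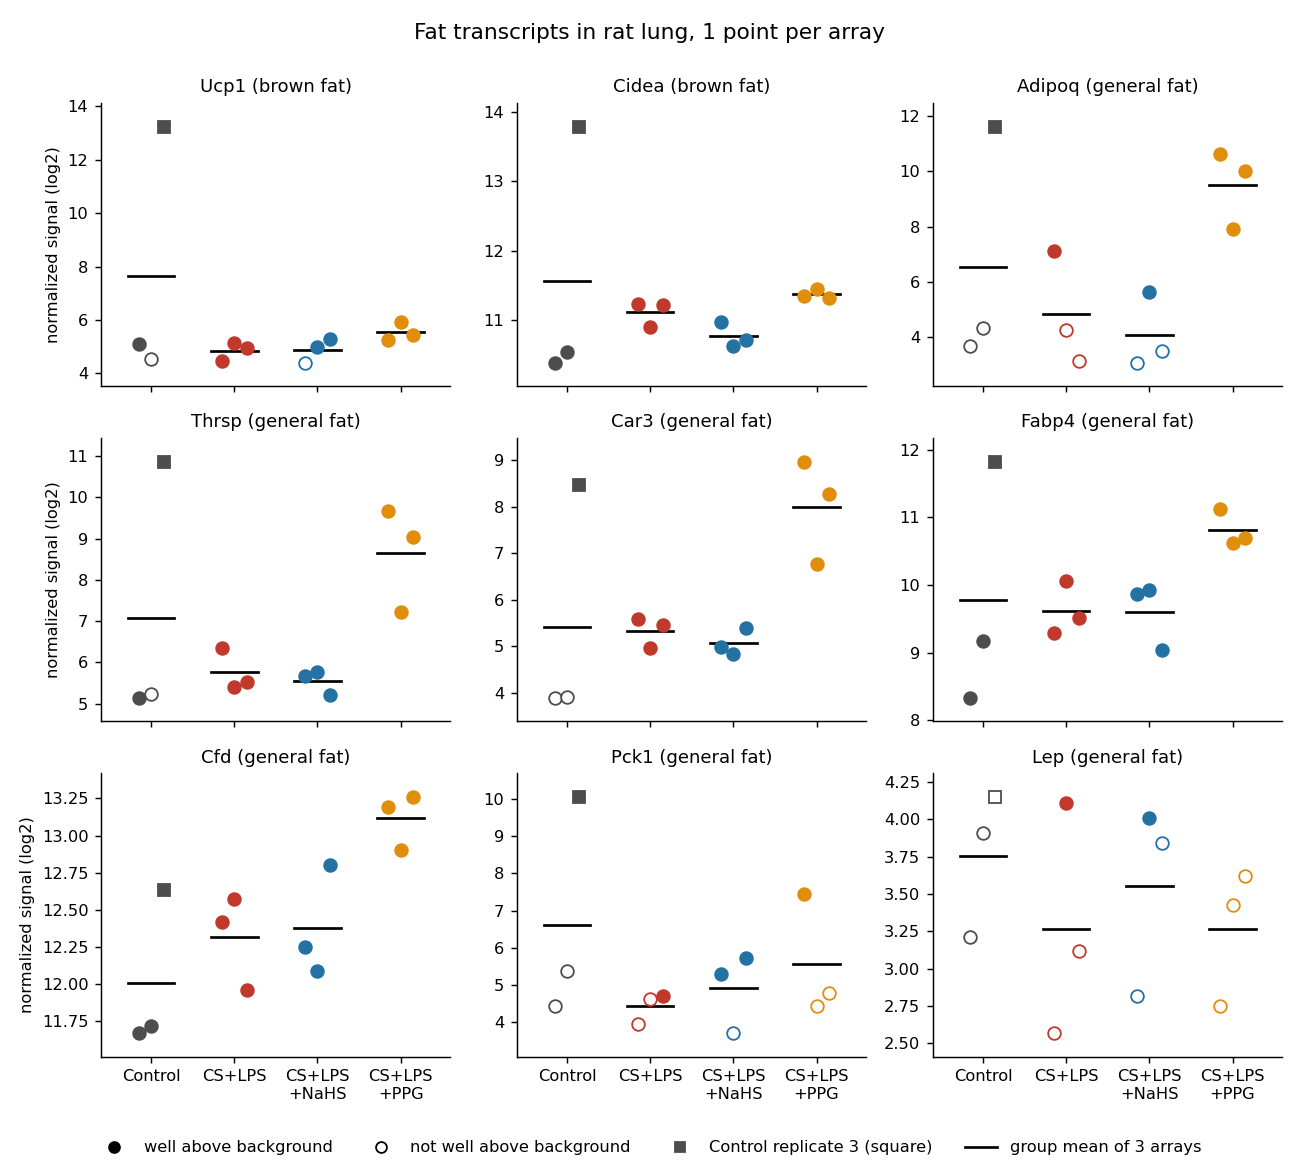
Normalized signal (log2) of the 9 measured genes on each of 12 arrays, by group, each panel on its own scale; open symbols were not well above background, the square is Control replicate 3 and the line is the group mean. Ucp1 is near 5 on 11 arrays and 13.24 on Control replicate 3, whereas Adipoq, Thrsp and Car3 are raised there and on the 3 CS+LPS+PPG arrays.

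Counted over the 9 measured members, Control replicate 3 was the highest of 12 arrays for 7, both brown fat genes and 5 of 7 general fat genes, against the 34.9% of genes given above. One of the 5 was Lep, which was not well above background there and was at 4.15 against 4.11 on the next array. All CS+LPS+PPG arrays lay above all CS+LPS arrays for 7 of 9 members (13.1% of 14731 genes) and above all CS+LPS+NaHS arrays for 6 (11% of genes). They lay above each of the 8 arrays of the other groups, Control replicate 3 aside, for 6 members, Adipoq, Thrsp, Car3, Fabp4, Cfd and Cidea (1.84% of genes). These shares describe genes chosen for their signal on these arrays, so nothing is read from the difference to the background shares.

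Averaged per array, the 7 general fat members had a mean of 8.41 ± 0.76 (SD, n = 3) in CS+LPS+PPG, 6.51 ± 0.28 in CS+LPS and 6.45 ± 0.15 in CS+LPS+NaHS. In control the mean was 7.31 ± 2.29, with 5.76 and 6.23 on the first 2 arrays and 9.94 on Control replicate 3. The highest non-PPG array besides that one was CS+LPS replicate 1 at 6.76, below the lowest CS+LPS+PPG array at 7.61. The brown fat pair averaged 8.45 ± 0.21 in CS+LPS+PPG, 7.98 ± 0.12 in CS+LPS, 7.83 ± 0.16 in CS+LPS+NaHS and 9.60 ± 3.40 in control, where Control replicate 3 was at 13.52. The general fat difference between CS+LPS+PPG and CS+LPS was 1.91 and the brown fat difference 0.47.

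**Figure D2:**
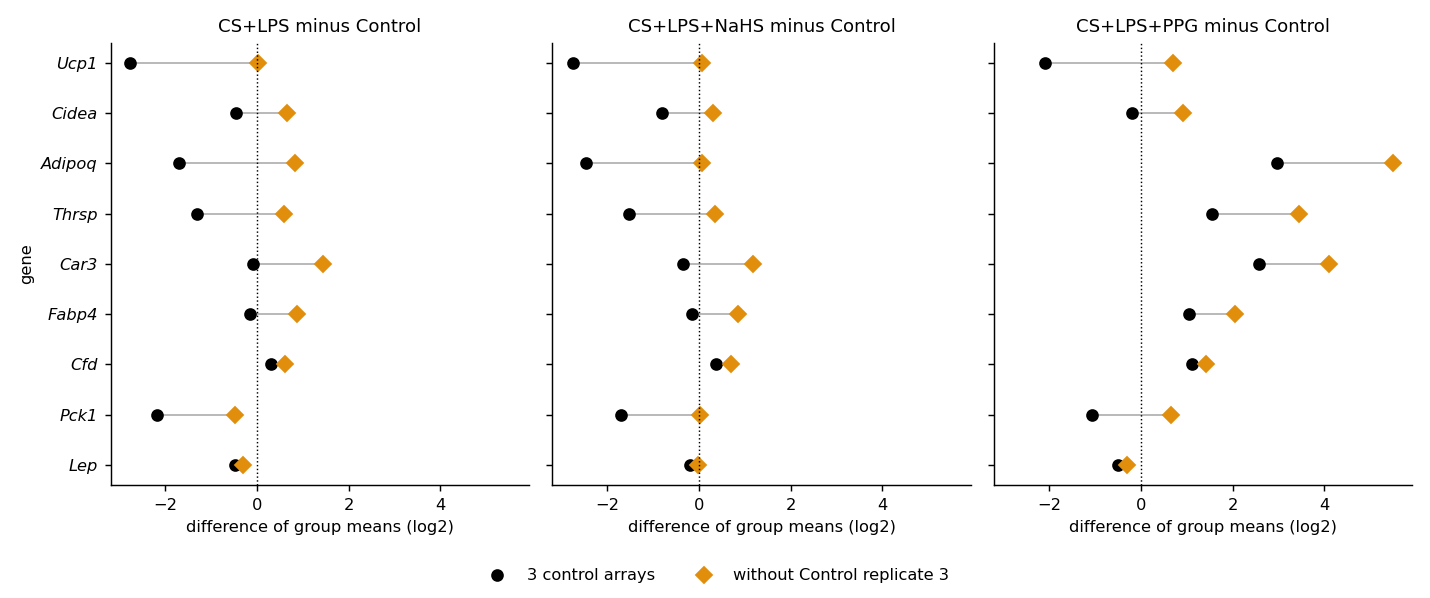
Difference of group means (log2) between each treated group and control for the 9 genes, with all 3 control arrays (circles) and without Control replicate 3 (diamonds). For Ucp1 all 3 differences are below -2 with the array and between 0.02 and 0.71 without it, and for Adipoq in CS+LPS+PPG the difference goes from 2.98 to 5.51.

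The comparisons with control share the same 3 control arrays. Of the 6 mean differences against control, 5 changed sign without this array. With it, the brown fat mean was 1.62 lower in CS+LPS than in control, and without it 0.34 higher. For CS+LPS+NaHS the brown fat difference went from -1.77 to 0.19, and for CS+LPS+PPG from -1.15 to 0.81. For the general fat mean the same comparison went from -0.80 to 0.51, that of CS+LPS+NaHS from -0.86 to 0.45, and that of CS+LPS+PPG from 1.10 to 2.42. Within slide 2, where Control replicate 3 is the only control array, the CS+LPS arrays lay 5.54 below it for brown fat and 3.43 for general fat. Within slide 1, where CS+LPS has no array, CS+LPS+PPG lay 1.97 above CS+LPS+NaHS for general fat and 0.62 for brown fat. The slide of the CS+LPS arrays cannot be told apart from their treatment except through Control replicate 3.

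Across the 12 arrays Thrsp, Adipoq and Car3 were the general fat members with the closest patterns. Thrsp correlated with Adipoq at r = 0.96 and with Car3 at 0.95 (n = 12), and at 0.95 and 0.96 without Control replicate 3 (n = 11). Pck1 correlated with Adipoq at 0.58 and with Cfd at 0.31, which became 0.29 and 0.41 without that array, and Lep correlated with the other general fat members at -0.08 to 0.20. For Ucp1, r with Cidea went from 0.93 to 0.35 without that array, with Pck1 from 0.83 to 0.08 and with Adipoq from 0.60 to 0.45. With Car3 it was 0.53 and 0.52, and with Cfd it went from 0.21 to 0.59. The arrays share the group structure and 1 array that stood apart, so these values are descriptions only.

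**Figure D3:**
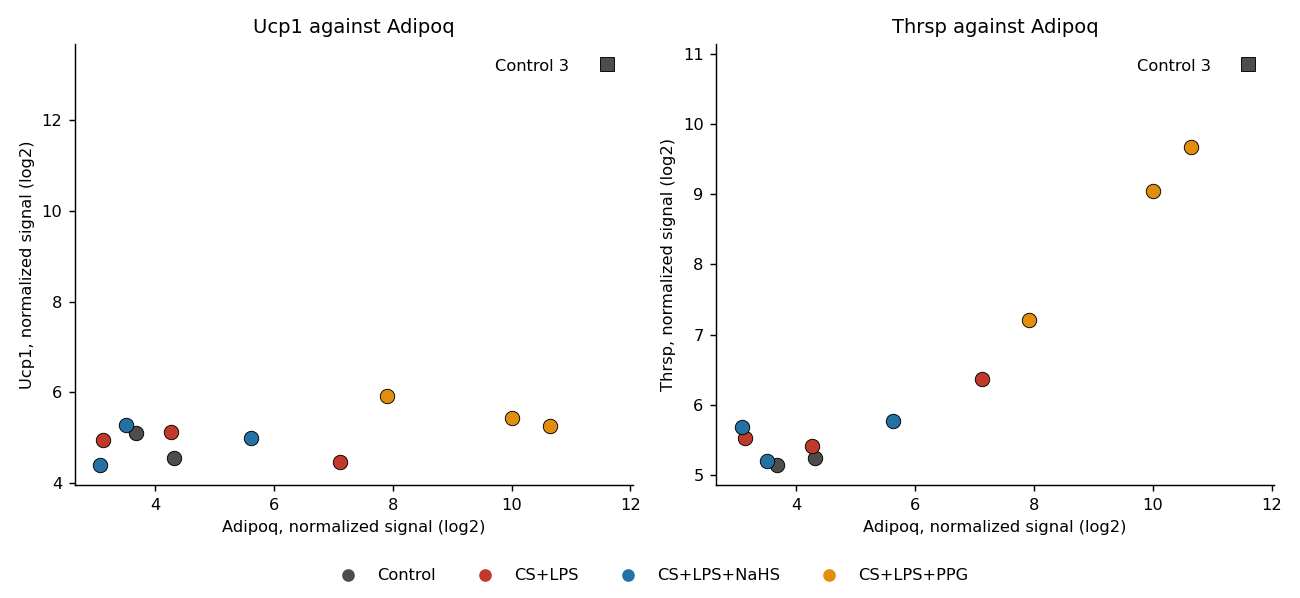
Normalized signal (log2) of Ucp1 (left) and Thrsp (right) against Adipoq, 1 point per array, coloured by group, with Control replicate 3 as a square. Thrsp climbs with Adipoq over the CS+LPS+PPG arrays to Control replicate 3, while Ucp1 stays between 4.40 and 5.93 on 11 arrays as Adipoq runs from 3.08 to 10.64.

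The genes most like Ucp1 over 12 arrays were Tecpr1, with r = 0.969, Pnisr, E4f1, Slc9a5, Igtp, Arrdc1, Hnrnpu and Usp40, the last with r = 0.961. Without Control replicate 3 their r with Ucp1 lay between -0.196 and 0.453, so the likeness rests on that array. Those most like Adipoq were Agr3 (r = 0.947), Nat8, Apobec2, Myl4, Hspb3, Art3, Abra and Rbfox1 (r = 0.891). These held without that array, at 0.924 for Agr3 and 0.843 for Rbfox1, the lowest. Myl4 is a myosin light chain of the heart atrium and was named here because it is on the heart muscle list below. The other genes most like Adipoq are on none of the lists used here and were not assigned to a cell type.

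Markers of heart muscle moved with the general fat transcripts on several arrays. Of 10 heart muscle genes, 8 were detected, and the atrial hormone gene Nppa and the calcium channel gene Ryr2 were well above background on no array. The mean of the list was 5.74, 5.88 and 10.70 in control, 9.78, 8.02 and 7.39 in CS+LPS, 5.79, 9.85 and 8.63 in CS+LPS+NaHS, and 10.30, 9.62 and 10.18 in CS+LPS+PPG. The list summed to between 6570 and 96300 units over the control arrays, and in the treated groups to between 13100 and 56000 (CS+LPS), 10500 and 58500 (CS+LPS+NaHS) and 43600 and 75300 (CS+LPS+PPG). Myh6, the atrial myosin heavy chain, was 3.42, 4.09 and 14.78 in control and 13.46, 12.74 and 13.56 in CS+LPS+PPG. It was also 13.23 on CS+LPS replicate 1 and 13.30 on CS+LPS+NaHS replicate 2, the 2 remaining arrays on which Adipoq was well above background. Myh6 was well above background on 3 arrays where Adipoq was not, at 10.37 and 9.39 on CS+LPS replicates 2 and 3 and 11.54 on CS+LPS+NaHS replicate 3. On CS+LPS replicate 1 and CS+LPS+NaHS replicate 2 the general fat mean was 6.76 and 6.56, each the highest of its group, against 7.61 or more in CS+LPS+PPG. The part of heart muscle in the fat transcript differences was not tested.

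**Figure D4:**
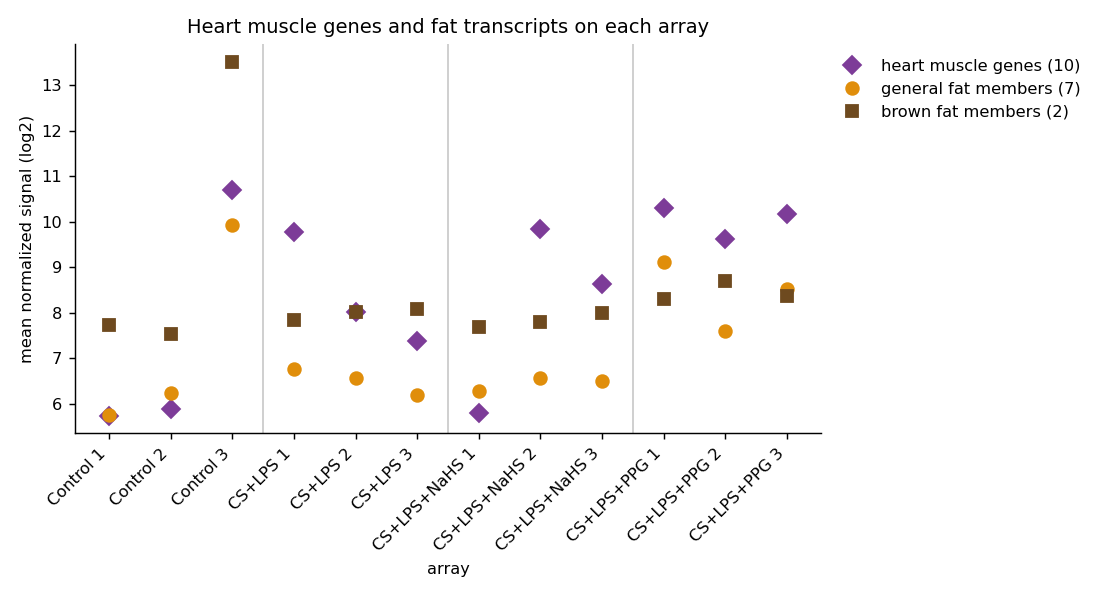
Mean normalized signal (log2) of 10 heart muscle genes, the 7 general fat members and the 2 brown fat members on each of 12 arrays. Control replicate 3 and the 3 CS+LPS+PPG arrays are high for heart muscle and general fat alike, whereas CS+LPS replicate 1 and CS+LPS+NaHS replicate 2 are at 9.78 and 9.85 for heart muscle and at 6.76 and 6.56 for general fat.

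The airway secretory list, 4 of 4 detected, also moved with the general fat transcripts in its mean, in CS+LPS+PPG through Bpifa1 alone. Its mean was 15.16 to 15.72 in CS+LPS+PPG, 13.46 to 14.18 in CS+LPS, 13.59 to 14.75 in CS+LPS+NaHS and 13.32 to 15.85 in control, and 1 of its 4 genes was called higher in CS+LPS+PPG against each of the 3 other groups. Bpifa1, a secreted airway defence protein, was 4.99, 6.26 and 11.44 in control, 9.48, 7.68 and 6.29 in CS+LPS, 6.50, 10.64 and 11.52 in CS+LPS+NaHS, and 15.01, 13.66 and 13.35 in CS+LPS+PPG. The other genes of the list overlapped between CS+LPS+PPG and CS+LPS. Scgb1a1 was 17.09 to 17.45 and 17.18 to 17.33, Cyp2f4 13.72 to 14.27 and 13.74 to 14.07, and Scgb3a2 16.17 to 16.79 and 16.05 to 16.93. Each of them was highest on Control replicate 3. The summed signal of the list, in which Bpifa1 weighs less, overlapped between groups at 240000 to 322000 units in CS+LPS+PPG and 294000 to 624000 in control. The part of airway cells in the fat transcript differences was not tested.

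Fabp4 is also made by other cells, so their lists are given too. Endothelial markers, 7 of 8 detected, summed to between 122000 and 131000 units in control and between 104000 and 125000 in CS+LPS+PPG, with CS+LPS at 110000 or more and CS+LPS+NaHS at 113000 or more. Alveolar macrophage markers, 4 of 6 detected, summed to at most 8870 units on a control array and to 13200 or more on every CS+LPS+PPG array, 14600 or more in CS+LPS and 14400 or more in CS+LPS+NaHS. Of the 4 macrophage genes, 3 were called higher than control in CS+LPS, 1 in CS+LPS+NaHS and 2 in CS+LPS+PPG. Liver markers, 2 of 7 detected, and skeletal muscle markers, 4 of 8 detected, summed to at most 659 and 1840 on any array, both on a control array. The part of these cells in the result was not tested.

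Relatives of the members that are not particular to fat were compared with them, and none of the 5 detected ones was highest on Control replicate 3. Ucp2, the uncoupling protein of many tissues, was 11.96, 12.25 and 10.42 in control and thus lowest on Control replicate 3, and Ucp3, that of muscle, was 8.47, 7.77 and 8.01. In CS+LPS+PPG they were 11.58 to 12.05 and 7.25 to 7.61. None of the 5, Ucp2, Ucp3, Pck2, Car2 and Car4, passed the call of a fold change of at least 2 with an unadjusted p under 0.05 in any of the 6 comparisons by limma. At unadjusted p under 0.05 alone, Car2 and Ucp3 differed between CS+LPS+PPG and control, by 0.68 and -0.70, and Car2 was lowest on Control replicate 3. Fabp1 and Fabp2, the liver and intestinal carriers, did not pass the detection filter.

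Other genes of fat cells, 82 in 7 lists that hold no member, asked whether the rest of the fat program changed with treatment. Of these 73 were on the array and 59 passed the filter, and they were tested by limma across all detected probes. Called below means a fold change of at least 2 with an unadjusted p under 0.05, the rule of the study's methods. In CS+LPS against control 4 of 59 were called, 1 higher and 3 lower (4.01% of 11145 genes, 1.78% higher and 2.23% lower). In CS+LPS+NaHS against control it was 2, 1 in each direction (2.68%, 1.37% higher and 1.31% lower), and in CS+LPS+PPG against control 4, 2 in each direction (4.57%, 2.69% higher and 1.88% lower). With CS+LPS as the reference, 1 was called higher in CS+LPS+NaHS (1.2%, 1.09% higher) and 3 were called in CS+LPS+PPG, all higher (1.62%, 1.39% higher). With CS+LPS+NaHS as the reference, 1 was called higher in CS+LPS+PPG (0.583%, 0.377% higher).

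At an adjusted p under 0.05 the counts were 3, 0 and 5 against control, where 2.05%, 0.126% and 5.42% of genes passed, and 0 in the other 3 comparisons, where 0.422%, 0.386% and 0% of genes passed. These adjusted counts depended on single arrays: the 3 in CS+LPS became 0 without CS+LPS replicate 2 or 3 or CS+LPS+NaHS replicate 2 or 3 and 1 without Control replicate 3, and the 5 in CS+LPS+PPG became 0 without any 1 of its arrays and 7 without Control replicate 3. The median difference over the 59 genes lay between -0.15 and 0.04, beside medians of all genes of -0.03 to 0.01. Without Control replicate 3 the 6 counts of called genes were 5, 4, 6, 1, 4 and 2, beside 2.67%, 1.97%, 3.42%, 1.27%, 1.88% and 0.718% of genes.

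By role, the 4 adipocyte transcription factors, the 5 detected hormone and fatty acid receptors and the 11 genes of fatty acid synthesis and glucose uptake had no call in any comparison with all 12 arrays. At an adjusted p under 0.05 by limma, 1 of the 4 transcription factors did pass against control, in CS+LPS and in CS+LPS+PPG, with a change under 2-fold. Means in control, CS+LPS and CS+LPS+PPG were 11.75, 12.48 and 12.67 for Pparg and 13.08, 12.24 and 12.09 for Klf15. Scd, the fatty acid desaturase of the synthesis list, and Cox8b, a cytochrome oxidase subunit of the brown fat list, were called only without Control replicate 3. This was in CS+LPS+PPG against control, at 1.19 for Scd and 1.08 for Cox8b, against 0.74 and 0.36 with all arrays. Both were named after their values were seen, so the differences are given with no p-value. Among 11 genes of fatty acid uptake and triglyceride synthesis the call was Fabp5, a fatty acid carrier of skin and macrophages. It rose by 1.57 ± 0.28 (SE, limma adjusted p = 0.0289) in CS+LPS against control and by 1.70 ± 0.28 (limma adjusted p = 0.0211) in CS+LPS+PPG. In CS+LPS+NaHS the difference was 1.43 (limma adjusted p = 0.106). Fabp5 was 13.54 to 14.95 in control and 15.58 to 16.08 on the 9 other arrays, so it was lowest on Control replicate 3, and without that array the 3 differences were 1.17, 1.03 and 1.30.

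Among 7 detected genes of the lipid droplet and lipolysis, Cidec and Lipe were called. Cidec, the lipid droplet protein of white fat related to CIDEA, was 7.84, 7.12 and 7.76 in control, 6.38, 6.76 and 6.17 in CS+LPS, 6.84, 7.09 and 6.31 in CS+LPS+NaHS, and 8.00, 7.35 and 7.89 in CS+LPS+PPG. Its difference was -1.13 for CS+LPS against control (limma adjusted p = 0.0587) and 1.31 for CS+LPS+PPG against CS+LPS (limma adjusted p = 0.0784), and the arrays did not overlap in either. Cidec was not raised on Control replicate 3. Lipe, hormone-sensitive lipase, was 8.18 ± 0.23 (SD, n = 3) in control and 7.11 ± 0.11 in CS+LPS+PPG, a fall of 1.07 ± 0.17 (SE, limma adjusted p = 0.0206) that was 0.94, under the 2-fold limit, without Control replicate 3.

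Among 13 detected genes of brown fat and heat production, Fabp3 and Ppargc1a were called. Fabp3, the fatty acid carrier of heart and muscle, rose by 2.96 ± 0.74 in CS+LPS+PPG against control (SE, limma adjusted p = 0.0484), and by 3.77 without Control replicate 3 (limma adjusted p = 0.0251). Without that array Fabp3 was also called against control in CS+LPS, at 1.92, and in CS+LPS+NaHS, at 2.13 (limma adjusted p = 0.148 and 0.204), where the differences with all arrays were 1.10 and 1.31. Its difference was 1.85 against CS+LPS (limma adjusted p = 0.409) and 1.64 against CS+LPS+NaHS (limma adjusted p = 0.571). Fabp3 was 9.58, 9.23 and 10.08 in CS+LPS+PPG and 5.84, 5.88 and 8.30 in control, and like the heart list above it reached 8.74 on CS+LPS replicate 1 and 9.10 on CS+LPS+NaHS replicate 2. Ppargc1a, a coactivator of mitochondrial genes, was 1.18 higher in CS+LPS+NaHS than in CS+LPS (limma unadjusted p = 0.00259, adjusted p = 0.143).

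Of 8 detected secreted and other adipocyte proteins, Sncg, Lgals12 and Angptl4 were called, each with an adjusted p above 0.05. Sncg, a synuclein found in fat and nerve, differed from control by -1.47 in CS+LPS and -1.26 in CS+LPS+NaHS (limma adjusted p = 0.144 and 0.282), and by -0.91 and -0.70 without Control replicate 3, where it was highest at 9.36. Lgals12, a galectin of fat cells, was at 3.78 to 5.79 and well above background on 7 arrays, with a difference of -1.06 for CS+LPS against control and 1.03 for CS+LPS+PPG against CS+LPS (limma adjusted p = 0.105 and 0.281). Angptl4, an inhibitor of lipoprotein lipase, was 10.58, 11.51 and 10.18 in control and 9.27, 8.76 and 9.25 in CS+LPS+PPG, a difference of -1.66 (limma adjusted p = 0.0829).

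Several genes outside the calls with all 12 arrays had the array pattern of Adipoq, and are named after their values were seen. Retn, which encodes the rodent fat cell hormone resistin, was 4.26, 5.76 and 12.12 in control, 7.14, 7.01 and 6.29 in CS+LPS, 9.55, 6.49 and 6.03 in CS+LPS+NaHS, and 11.36, 8.99 and 10.48 in CS+LPS+PPG. CS+LPS+NaHS replicate 1 thus lay above the lowest CS+LPS+PPG array. The Retn difference between CS+LPS+PPG and control was 2.89, and 5.26 without Control replicate 3, given with no test because the gene was picked for this pattern. Retn is among the genes counted above as called without that array, in CS+LPS+PPG against each other group and in CS+LPS+NaHS against control. Adrb3, the fat cell adrenergic receptor, was 9.29 on Control replicate 3, 7.02, 4.56 and 6.87 in CS+LPS+PPG and at most 4.61 on the other 8 arrays, so 1 CS+LPS+PPG array overlapped them. Aqp7, the glycerol channel of fat, was 7.42 on Control replicate 3, 6.34, 3.97 and 5.37 in CS+LPS+PPG and at most 3.09 elsewhere, and neither passed the filter. Cpt1b, the muscle and brown fat enzyme that moves fatty acids into mitochondria, followed Ucp1 instead. It was 11.95 on Control replicate 3 and 7.28 to 9.28 on the others. Other genes of the same lists were lowest on Control replicate 3. They were Abhd5, Adipor2, Agpat2, Apln, Cd36 (brighter probe), Cebpa, Fabp5, G0s2, Gk, Mgll, Nr1h3, Plin2 and Slc25a1. Dio2, Zic1, Lhx8 and Esrrg of the brown fat list were well above background on no array.

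**Figure D5:**
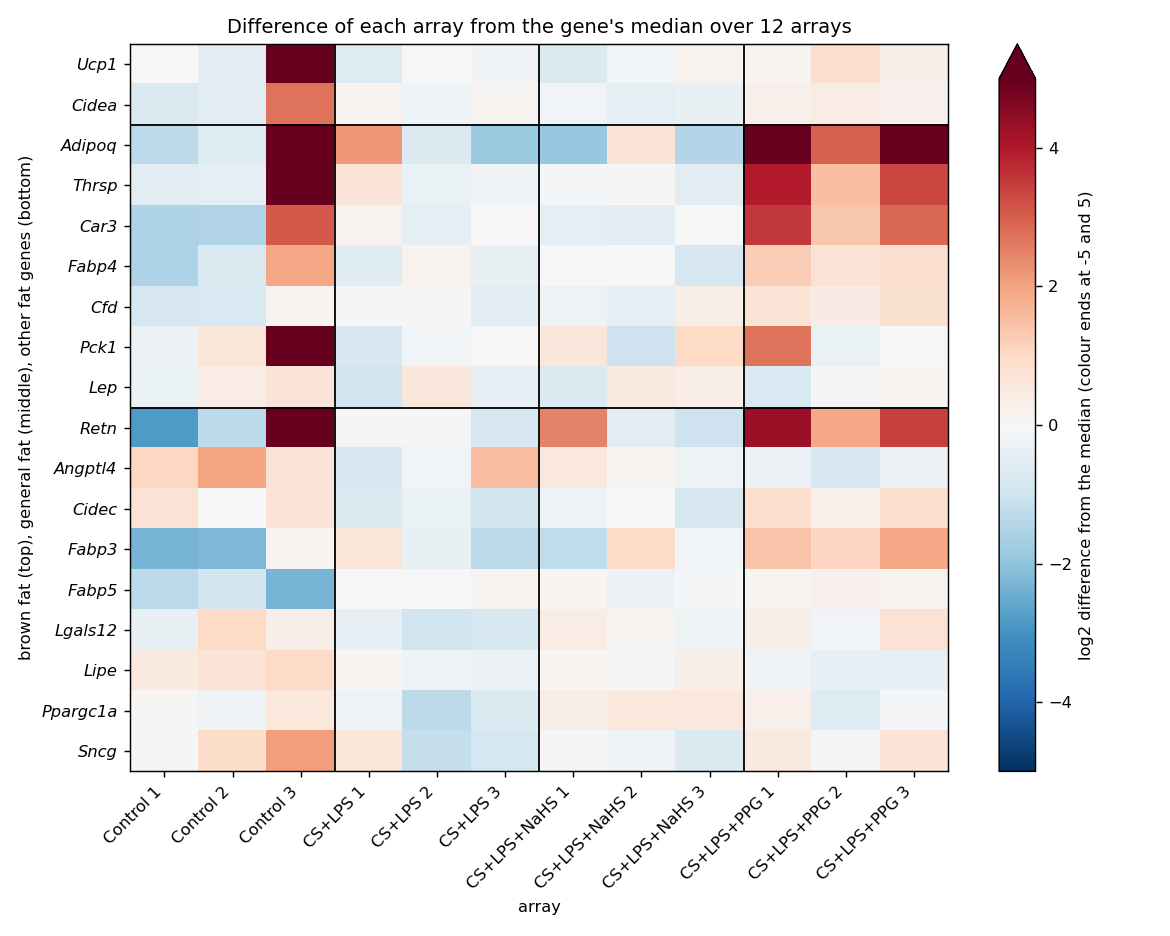
Difference (log2) of each of 12 arrays from each gene's median over the arrays, for the 2 brown fat members (top), 7 general fat members (middle) and Retn with the 8 called other fat genes (bottom), with colours ending at -5 and 5. The columns of Control replicate 3 and CS+LPS+PPG are raised for Adipoq, Thrsp, Car3 and Retn, the Ucp1 row is raised on Control replicate 3 only, and Fabp5 is lowest there.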

How the data were processed

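Lung RNA of 12 samples was hybridised to 1-colour Agilent rat arrays in 4 groups of 3. The authors deposited scanner files made with Agilent Feature Extraction 10.7.3.1, in which the processed intensity has background removed by the scanner software and no normalization across arrays. Differential expression lists of the authors' own p-values and fold changes, with log2 values in 60 columns for selected probes, were not used.

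Outlier spots (446 to 704 of 62976 per array) were left out, and log2 signals were averaged over the spots of a probe and shifted to a common 75th percentile. No spot was saturated (0). A probe was well above background on an array when at least 0.5 of its spots were, and detected when this held on all 3 arrays of a group: 21239 of 30367 probes. RefSeq accessions named 17514 probes, and 12853 were not named. A gene was represented by its most intense probe. Fits used limma 3.58.1 in R 4.3.3 on all groups, with Benjamini-Hochberg adjustment over detected probes. The fit was tested on simulated data.

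Named genes are the members, up to 3 called other fat genes per direction and comparison, and the 8 genes most correlated with Ucp1 and with Adipoq. The members and lists were chosen with earlier results of these data known, and comparisons share control arrays. Alternatives were quantile normalization, a percentile over probes bright on 12 arrays, normexp with an offset of 50 on median signals, other filters, outlier spots included, a block for slide, a block for replicate number, each array left out, and the methods' t-test. Array intensity and the number of arrays limit precision, and p-values measure only the spread between these samples, which may be technical where replicates are not separate rats.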

Additional observations from a re-analysis of the deposited data

How the results depend on the processing

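The mean differences of the fat members against control depended on Control replicate 3. Leaving out 1 array at a time, the brown fat difference ran from -2.65 to 0.34 for CS+LPS, -2.80 to 0.19 for CS+LPS+NaHS and -2.18 to 0.81 for CS+LPS+PPG, and the general fat difference from -1.58 to 0.51, -1.64 to 0.45 and 0.33 to 2.42, the upper end being without that array in all 6 and the lower end without Control replicate 1 (general fat) or 2 (brown fat). With slide as a block, and within slide 1, the values for CS+LPS+NaHS and CS+LPS+PPG were those without it, 0.19 and 0.81 for brown fat and 0.45 and 2.42 for general fat. For CS+LPS they were -5.54 and -3.43, with slide as a block and within slide 2. Against CS+LPS, the slide block gave 5.73 (CS+LPS+NaHS) and 6.35 (CS+LPS+PPG) for brown fat and 3.88 and 5.85 for general fat, values that rest on Control replicate 3 alone, and no within-slide value exists. No other alternative moved these means by more than the SD between replicates pooled over the 4 groups. Control replicate 3 widened that SD, through 3.40 (brown fat) and 2.29 (general fat) in control, so smaller moves were not marked. With normexp, in CS+LPS+PPG against CS+LPS, Thrsp fell from 2.88 to 2.10 and Car3 from 2.67 to 1.69. Fabp4, at 1.19 and 1.18, and Cfd, at 0.80 and 0.82, stayed.

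Counts of called other fat genes moved by over 1.5 times as follows. For CS+LPS against control, 4 became 24 with slide as a block or within slide 2, 2 with quantile normalization, with normexp and by the methods' t-test, and 2 to 8 when 1 array was left out (CS+LPS replicate 2 gave 2, CS+LPS replicate 1 gave 8). For CS+LPS+NaHS against control, 2 became 4 with the slide block or no filter, 1 with the replicate block and by the methods' t-test, and 1 to 4 with 1 array left out: 4 without any control array, 1 without CS+LPS+NaHS replicates 2 or 3 or any CS+LPS+PPG array. For CS+LPS+NaHS against CS+LPS, 1 became 0 with normexp, 20 with the slide block, and 0 to 2 with 1 array left out (0 without CS+LPS replicate 2, 2 without CS+LPS replicate 1 or CS+LPS+NaHS replicate 3). For CS+LPS+PPG against CS+LPS, 3 became 21 with the slide block and 1 to 5 with 1 array left out (1 without CS+LPS replicates 2 or 3, 5 without CS+LPS replicate 1). For CS+LPS+PPG against CS+LPS+NaHS, 1 became 2 with quantile normalization, the slide block or within slide 1, 0 with the percentile over bright probes, the replicate block, no filter or the methods' t-test, and 0 to 2 with 1 array left out: 2 without Control replicate 3 or CS+LPS+NaHS replicate 2, and 0 without CS+LPS replicate 2, CS+LPS+NaHS replicate 3 or CS+LPS+PPG replicates 1 or 3. For CS+LPS+PPG against control the count stayed between 3 and 6. At an adjusted p under 0.05, the counts of 3, 0 and 5 against control became 30, 0 and 7 with the slide block and 0 in all 3 with the replicate block and by the methods' t-test. Against CS+LPS, where they were 0, the slide block gave 19 (CS+LPS+NaHS) and 21 (CS+LPS+PPG). With 1 array left out they ran from 0 to 3 for CS+LPS, 0 to 1 for CS+LPS+NaHS and 0 to 7 for CS+LPS+PPG against control. The causes were not tested.

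Same-numbered arrays of different groups correlated at -0.31 to 0.14 in their deviations from group means, over 0.1 in 2 of 18 pairs, and 1 array correlated best with its own number, so the numbers name arrays and do not pair them. Adipoq, Car3, Thrsp and Pck1 were near background on several arrays, where normexp shrank the differences: Adipoq in CS+LPS+PPG against CS+LPS fell from 4.68 to 2.89.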
